A study of Sus scrofa domesticus with 4 samples.

Results

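The NF-kappaB inhibitor gene NFKBIA, the NF-kappaB subunit gene RELA, the cytokine receptor gene IL6ST, the chemokine receptor gene CXCR4 and the chemokine gene CCL5 were examined in the anterior pituitary of gilts (young female pigs, Large White x Polish Landrace). These 5 genes were found through the RefSeq accessions of the array's probes, out of 2459 genes that could be named in this way, of which 1744 had a probe that could be tested. They were selected on earlier log2 ratios of pregnant over cyclic gilts from the same arrays. Their ratios are therefore given as a description, with no test. RNA came from 4 gilts mated naturally and killed on days 12 to 13 of early pregnancy, with conceptuses present, and from 4 gilts killed on days 12 to 13 of the estrous cycle. The labels name no drug or hormone treatment in either group and a weight of about 110 kg. Each of 4 dual-colour arrays held RNA of 1 pregnant and 1 cyclic gilt, so 4 independent log2 ratios of pregnant over cyclic were available for each probe.

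NF-kappaB is a family of transcription factors that inflammatory cytokines and microbial products switch on. In resting cells the inhibitor encoded by NFKBIA holds dimers containing the RELA subunit in the cytoplasm, and its kinase-driven breakdown releases them; NFKBIA is also a target gene that the released factor induces. IL6ST encodes gp130, the signalling subunit shared by the receptors for interleukin 6, LIF and their relatives, which act through JAK kinases and STAT3. In the anterior pituitary, folliculostellate cells are a known source of interleukin 6, and LIF is known to act on the cells that make POMC. CXCR4 is the receptor of the chemokine CXCL12, and CCL5 encodes a chemokine made largely by T cells and other activated cells, whose receptors include CCR1 and CCR3.

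The sample labels alternate the dyes: pregnant RNA was in Cy3 on arrays 1 and 3 and in Cy5 on arrays 2 and 4. Read literally, the labelling protocol puts pregnant RNA in Cy3 throughout, and ratios turned by that reading are given with the other alternatives at the end. Once turned by the sample labels, the ratios of all tested probes correlated positively between all 6 pairs of arrays, from 0.0194 for arrays 3 and 4 to 0.445 for arrays 1 and 3. The share of spots well above background was 47.5% to 67.9% in Cy3 and 60.7% to 71.8% in Cy5, and 0 spots were saturated. The log2 ratios of tested probes had an SD of 0.58 on array 3, against 0.33, 0.29 and 0.28 on arrays 1, 2 and 4. Large ratios on array 3 are to be read beside this wider spread. Array 4 had a dim area, in which its signals fell below those of the other 3 arrays; it took in 5141 spots (11.7%). Of the 19 endocrine marker genes of the anterior pituitary (hormones, their hypothalamic receptors, lineage factors and granins) 17 were on the array under a name and all 17 were tested. Of the 7 markers of the posterior and intermediate lobes, oxytocin (OXT), MBP and AQP4 were tested, and the mean log2 level of the 2 with values in all 8 gilts ran from 10.19 to 11.03. Vasopressin (AVP) was not tested, with 5 of its 8 signals well above background. In whole tissue, fewer cells of a type and less RNA per cell cannot be told apart.

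The 5 genes were read by 9 probes, 2 each for NFKBIA, RELA, IL6ST and CCL5 and 1 for CXCR4. The brightest probe of a gene stands for it below. Of these brightest probes, those of NFKBIA, IL6ST and CCL5 had a higher and those of RELA and CXCR4 a lower mean signal in pregnant gilts. Of 36 spots (9 probes on 4 arrays), 1 lay in the dim area of array 4, 1 carried an outlier flag of the scan software and was left out, and 2 were not well above background in Cy3. Across the whole array 0 of 21616 tested probes, a share of 0%, had an adjusted p under 0.05 (limma with Benjamini-Hochberg adjustment). Without adjustment, 3904 probes (18.1%) had a limma p under 0.05. A separate-channel fit of the 8 gilts by limma called 1049 of 19869 probes at an adjusted p under 0.05 and 5424 without adjustment.

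**Figure D1:**
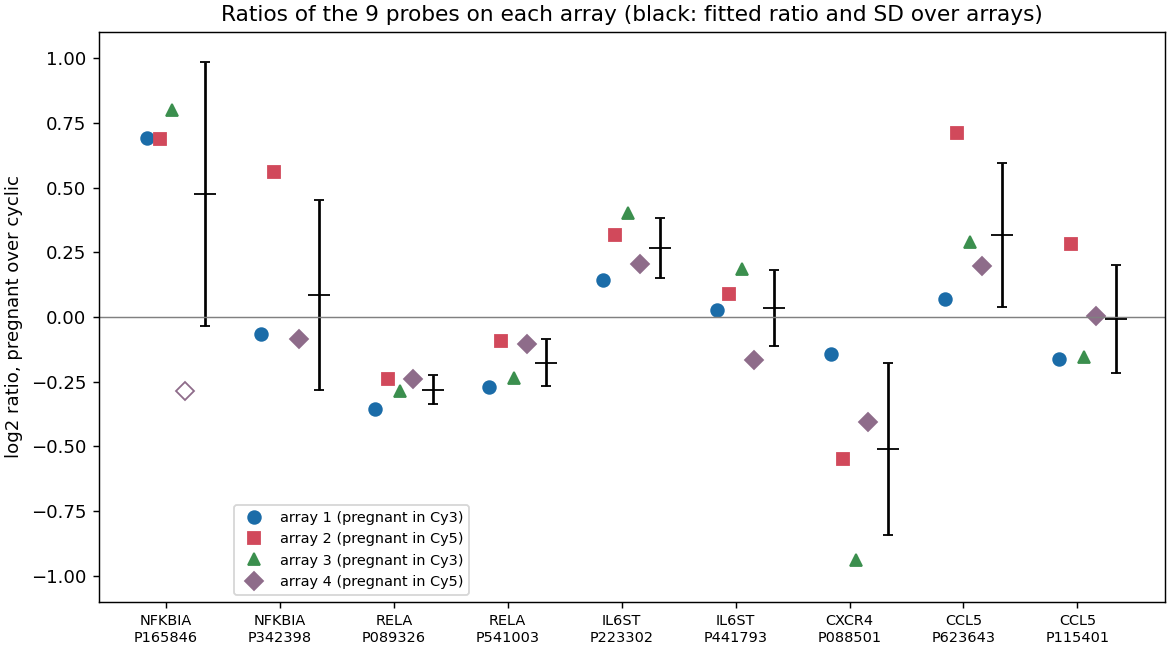
Log2 ratio of pregnant over cyclic (vertical axis) for each of the 9 probes (horizontal axis), with 1 point per array and the fitted ratio with its SD over the arrays in black. The open diamond is the NFKBIA spot in the dim area of array 4, at -0.29, while the other 3 arrays gave 0.69, 0.69 and 0.80. The 4 RELA points of the brightest probe lie between -0.36 and -0.24.

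NFKBIA (NM_001005150), which encodes the inhibitor of NF-kappaB, showed the largest positive ratio of the 5 genes. On its brightest probe, A_72_P165846, the log2 ratio was 0.69 on array 1, 0.69 on array 2 and 0.80 on array 3, but -0.29 on array 4. The fitted ratio was 0.47 ± 0.51 (SD, n = 4), a 1.39-fold higher mean in pregnant gilts. Without array 4 the mean was 0.73 ± 0.06 (SD, n = 3), and the fit without array 2 gave 0.23, so single arrays set the size of this value and array 4 its spread. With median centring in place of loess the arrays read -0.06, 1.47, 0.60 and 0.40, so the array that differs in sign depends on this step.

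The normalised log2 levels of NFKBIA show the same split. Pregnant gilts of arrays 1, 2 and 3 had 14.45, 14.32 and 14.41, and their cyclic partners had 13.76, 13.63 and 13.61. On array 4 the pregnant gilt had 11.31 and the cyclic gilt 11.60, so both gilts of that array stood far below the other 6. Over the 4 arrays the pregnant and cyclic levels overlapped.

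The array 4 spot of A_72_P165846 sits at row 177 and column 47, near the first rows of the dim area. Its median signal was 1282 in Cy3 and 2585 in Cy5, against at least 7750 in Cy3 and at least 17583 in Cy5 on the other arrays. Its log2 brightness relative to the other arrays was -3.02, and spots within 20 rows and 5 columns of it that were well above background on the other arrays had a median of -1.09. The ratios of those neighbours had a median of 0.02 on array 4. Within the dim area the ratios of bright spots had an SD of 0.18 on array 4, against 0.28 outside it. The part of the dim area in the NFKBIA ratio of array 4 was not tested.

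**Figure D2:**
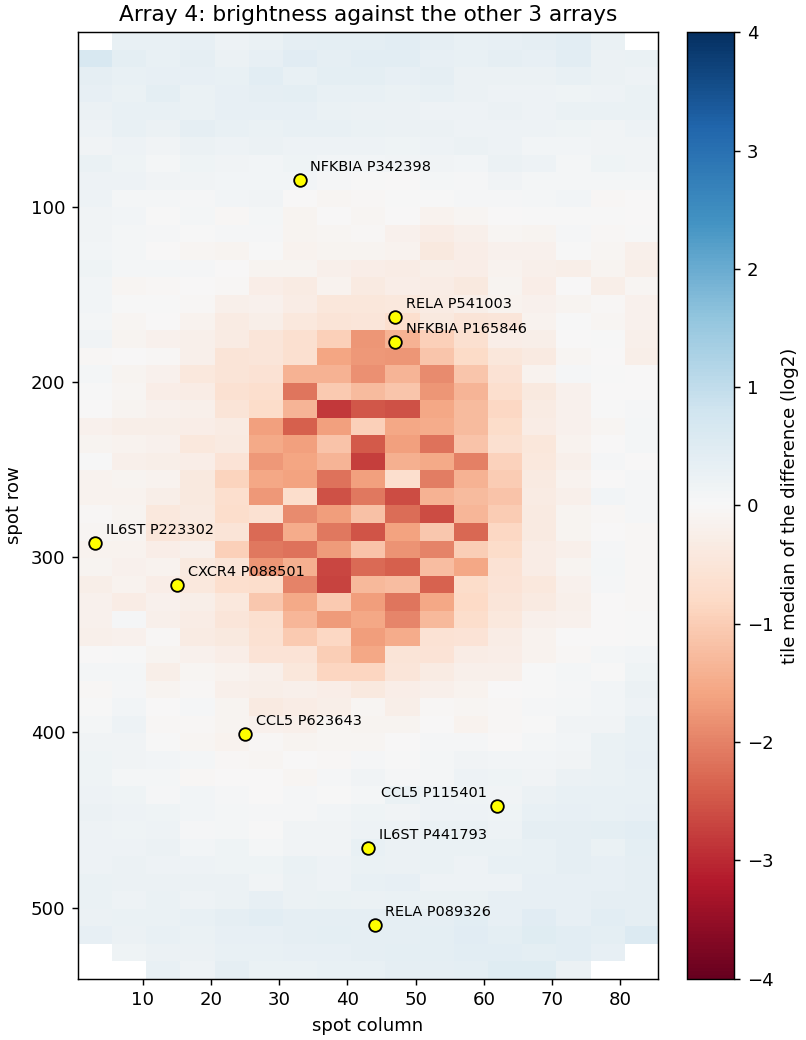
Brightness of array 4 against the mean of the other 3 arrays (log2 colour scale) as medians of tiles of 10 rows by 5 columns, at their spot row and column, with the 9 member probes as yellow points. The NFKBIA probe P165846 at row 177 and column 47 is the member spot inside the dim area, and the RELA probe P541003 at row 163 and column 47 is the nearest one outside it.

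The second NFKBIA probe, A_72_P342398 at row 85 and column 33, lies far from the dim area and gave a different picture. Its log2 ratio was -0.07 on array 1, 0.56 on array 2 and -0.08 on array 4, with a fitted ratio of 0.09 ± 0.37 (SD, n = 3). Array 3 was left out there because its spot carried an outlier flag; with flagged spots kept, it read 0.27 on that array and 0.17 in the fit. The 2 probes thus gave 0.69 and 0.56 on array 2, but 0.69 and -0.07 on array 1. The array 4 gilts, lowest of the 8 on the first probe, had the highest levels of the 6 gilts read by the second, at 11.18 in the pregnant and 11.27 in the cyclic gilt. That spot had a log2 brightness of 0.25 relative to the other arrays, with a median of 0.09 for its neighbours. On arrays 1 and 2 the second probe gave 10.47 and 10.55 in pregnant gilts, against 10.53 and 9.99 in cyclic gilts, so the groups overlapped.

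RELA (NM_001114281), which encodes the p65 subunit of NF-kappaB, had the most even ratio of the 5 genes as processed here, though not with the processed signals given below. On its brightest probe, A_72_P089326, the log2 ratio was -0.36, -0.24, -0.29 and -0.24 on arrays 1 to 4. The fitted ratio was -0.28 ± 0.05 (SD, n = 4), a 1.21-fold lower mean in pregnant gilts. In each array the pregnant gilt had the lower level, with 6.93, 7.13, 7.15 and 7.71 against 7.28, 7.37, 7.43 and 7.95 in the cyclic gilts. The 2 groups nevertheless overlapped, because both levels of array 4 were higher than the rest. The array 4 spot had a log2 brightness of 0.38 relative to the other arrays, with a median of 0.34 for its neighbours. The part of local brightness in these levels was not tested.

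The second RELA probe, A_72_P541003, was also negative on the 4 arrays, at -0.27, -0.09, -0.23 and -0.11, with a fitted ratio of -0.18 ± 0.09 (SD, n = 4). Its levels were 6.66, 6.86, 6.81 and 6.49 in pregnant and 6.93, 6.95, 7.04 and 6.60 in cyclic gilts, and here both gilts of array 4 were lowest. Both probes were weak. The first read 65.5 to 100 in Cy3, over a local background of 28 to 35, and 147 to 194.5 in Cy5. The second read 45 in Cy3 and 44 in Cy5 on array 4, over backgrounds of 41 and 36, and was not well above background in Cy3 there, at row 163 and column 47. Its neighbours on array 4 had a median log2 brightness of -0.64 relative to the other arrays. An offset of 50 is added to each signal before the log is taken, which draws the ratios of weak spots towards 0. For A_72_P089326 the fitted ratio was -0.37 with an offset of 16, and -0.53 with the scan software's processed signals, which also replace the background correction and the loess step. These processed signals gave it -0.71, -0.39, -0.70 and -0.33 on the 4 arrays. IL6ST probe A_72_P223302, at 0.11, 0.29, 0.35 and 0.12, was then more even. With median centring A_72_P089326 read -0.52, -0.06, -0.23 and 0.06, so it was not negative on each array.

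IL6ST (NM_001097432), the gene of the shared receptor subunit gp130, had a positive ratio on the 4 arrays. On its brightest probe, A_72_P223302, the log2 ratio was 0.14, 0.31, 0.40 and 0.20 on arrays 1 to 4. The fitted ratio was 0.27 ± 0.12 (SD, n = 4), a 1.20-fold higher mean in pregnant gilts. Levels were 9.30, 9.51, 9.64 and 9.72 in the pregnant and 9.15, 9.19, 9.23 and 9.51 in the cyclic gilts. The cyclic gilt of array 4, at 9.51, lay within the pregnant range, so the groups overlapped.

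The second IL6ST probe, A_72_P441793, did not show this difference. Its log2 ratio was 0.03, 0.09, 0.19 and -0.16, with a fitted ratio of 0.04 ± 0.15 (SD, n = 4). Levels were 7.36, 7.58, 7.57 and 8.06 in pregnant and 7.33, 7.49, 7.38 and 8.23 in cyclic gilts, with full overlap and both gilts of array 4 highest. The array 4 spot had a log2 brightness of 0.40 relative to the other arrays, with a median of 0.22 for its neighbours. This probe was dimmer, at 94 to 144 in Cy3, against 294.5 to 717.5 for the first probe. On arrays 1 to 3 both probes put the smallest ratio on array 1 and the largest on array 3.

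CXCR4 (NM_213773), the receptor gene for CXCL12, had the most negative ratio of the 5 genes. Its only probe, A_72_P088501, gave log2 ratios of -0.14, -0.55, -0.94 and -0.41 on arrays 1 to 4. The fitted ratio was -0.51 ± 0.33 (SD, n = 4), a 1.42-fold lower mean in pregnant gilts. Levels were 9.77, 9.59, 9.53 and 9.51 in pregnant gilts and 9.91, 10.13, 10.47 and 9.91 in cyclic gilts. The groups did not overlap, but the gap between the highest pregnant and the lowest cyclic gilt was small beside the spread of the cyclic gilts, whose SD was 0.26 against 0.12 in the pregnant ones. The most negative ratio belonged to array 3, whose cyclic gilt had the highest level of the 8, and without array 3 the fitted ratio was -0.31. Ratios of all tested probes were widest on that array. With ratios scaled to a common spread between arrays, CXCR4 had -0.71 there and -0.49 in the fit. Its median signals were 394.5 to 765 in Cy3 and 682.5 to 1792 in Cy5, lowest on array 4 in both dyes, and the 4 spots were well above background in both. At row 316 and column 15 of array 4 the spot had a log2 brightness of -0.62 relative to the other arrays, with a median of -0.23 for its neighbours.

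CCL5 (NM_001129946) had a positive ratio on the 4 arrays on its brighter probe, A_72_P623643, at 0.07, 0.71, 0.29 and 0.20. The fitted ratio was 0.32 ± 0.28 (SD, n = 4), a 1.25-fold higher mean in pregnant gilts. Levels were 8.68, 8.71, 8.84 and 8.44 in the pregnant gilts and 8.61, 8.00, 8.56 and 8.24 in the cyclic gilts. The groups overlapped, and the largest ratio belonged to array 2, whose cyclic gilt had the lowest level of the 8. Without array 2 the ratio was 0.19. Its median signals were 118.5 to 400 in Cy3 and 287 to 710 in Cy5. They were lowest on array 4 in both dyes, at row 401 and column 25, where the log2 brightness relative to the other arrays was -0.58 and that of the neighbours had a median of -0.12.

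The second CCL5 probe, A_72_P115401, gave -0.16, 0.28, -0.15 and 0.00 and a fitted ratio of -0.01 ± 0.21 (SD, n = 4). This probe was close to background, with 42 to 69 in Cy3, and its Cy3 spot on array 4, at row 442 and column 62, was not well above background. Its levels were 6.79, 6.85, 6.76 and 6.90 in pregnant and 6.95, 6.56, 6.91 and 6.90 in cyclic gilts, so the cyclic range enclosed the pregnant one. On both probes array 2 had the largest ratio of the 4 arrays. The mean of arrays 2 and 4 exceeded that of arrays 1 and 3, at 0.45 against 0.18 on the brighter probe and 0.14 against -0.16 on the dimmer one. The 2 pairs of arrays differ in dye orientation and in gilts, which cannot be told apart.

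**Figure D3:**
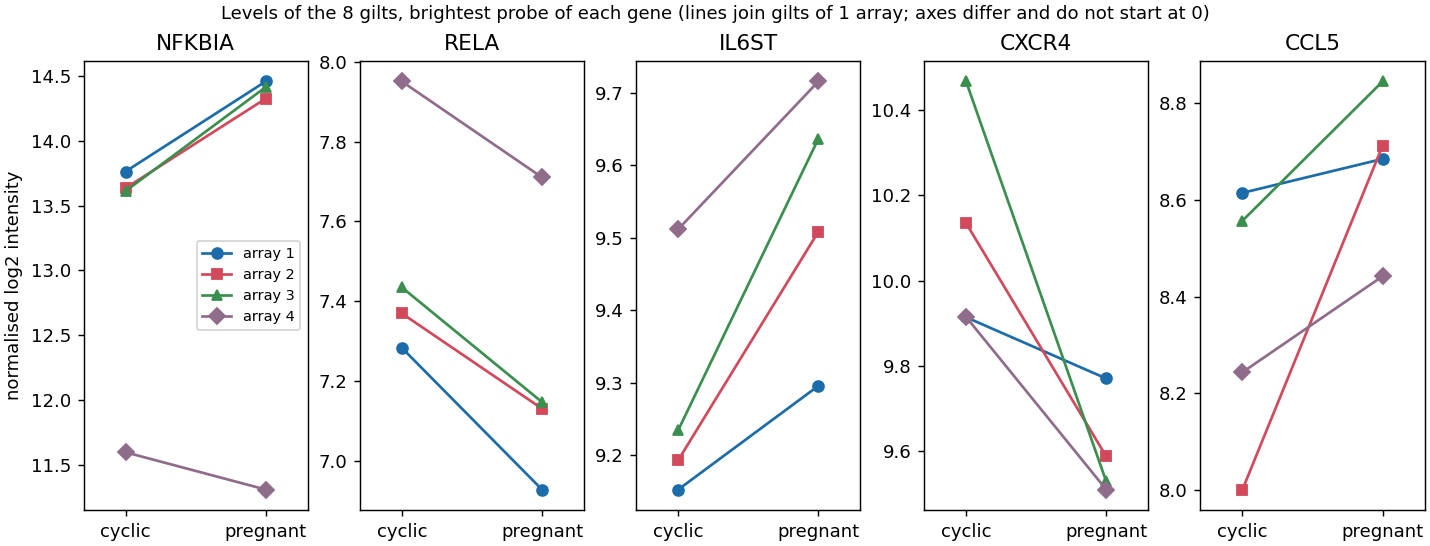
Normalised log2 intensity (vertical axes, which differ between panels) of the brightest probe of each gene in cyclic and pregnant gilts, with a line joining the 2 gilts of an array. RELA and CXCR4 are lower in the pregnant gilt on each of the 4 lines and IL6ST and CCL5 higher on each, while the NFKBIA line of array 4 runs from 11.60 down to 11.31.

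Of the 8 member probes with 4 ratios, 2 were positive on all arrays (IL6ST A_72_P223302 and CCL5 A_72_P623643) and 3 were negative on all arrays (both RELA probes and the CXCR4 probe). Among all 19869 tested probes with 4 ratios, 14.6% were positive on every array and 11.3% negative on every array. CXCR4 was the member whose pregnant levels lay wholly below the cyclic ones, which held for 1.04% of 19869 probes; the reverse order held for 2.37% of them and for 0 members. Since this contrast chose the genes, these shares are given as a scale only. In 3 of the 4 genes with a pair of probes, the probes differed in sign on at least 1 array, and RELA was the exception.

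The other genes of these pathways were counted from 5 lists, leaving the 5 members out. Of 168 listed genes 96 were on the array under a name and 63 were tested, 58 of them not members. The 58 divided into 29 with a positive and 29 with a negative ratio, with a median of 0.00. Over the 1744 named genes tested 43.6% were positive and the median was -0.02. By limma 0 of the 58 passed over all probes (smallest adjusted p = 0.234). An unadjusted limma p under 0.05 was found for 5 of the 58, 4 with a positive and 1 with a negative ratio, and for 13.8% of all named genes.

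Those 5 genes are named here after their values were seen. They were IRAK4, a kinase that relays Toll-like receptor signals, at 0.39 ± 0.27, and CD83, a surface protein of activated dendritic and lymphoid cells, at 0.30 ± 0.15 (SD, n = 4 each). The chemokine gene CCL19 had 0.29 ± 0.32 and the Toll-like receptor gene TLR1 0.22 ± 0.10 (SD, n = 4 each). These are log2 ratios and, like the ratio below, did not pass after adjustment. TLR4, the receptor of bacterial lipopolysaccharide, was negative on the 4 arrays, at -0.46, -0.15, -0.71 and -0.30, with a fitted ratio of -0.41 ± 0.24 (SD, n = 4). Pregnant gilts of the 4 arrays had TLR4 levels of 7.03, 7.01, 6.89 and 7.42, and cyclic gilts 7.49, 7.15, 7.60 and 7.73, so the groups overlapped.

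Around NFKBIA and RELA, the list of NF-kappaB subunits, inhibitors and kinases held 7 other tested genes, 2 positive and 5 negative, with a median of -0.11; 1 of 7 was positive with pregnant RNA read as Cy3 throughout. IKBKB, a catalytic kinase of the complex that marks the inhibitor for breakdown, had -0.10 ± 0.07 and was negative on the 4 arrays. It was weak, with log2 levels of 6.59 to 6.86, where the offset draws ratios towards 0. IKBKG, its regulatory subunit, had -0.12 ± 0.18. CHUK, the other catalytic kinase, had -0.25 ± 0.51, which came from array 3 at -1.004, the other arrays lying between -0.06 and 0.07. Array 3 was the array with the widest ratios over all tested probes. NFKB1, the gene of the p50 partner of RELA, and the adaptor gene MYD88 were on the array and were not tested, each with 6 of 8 signals well above background, while NFKB2, RELB, NFKBIB, NFKBIE and TNFAIP3 had no named probe.

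Upstream, 17 genes of ligands and receptors were tested, 6 positive and 11 negative, with a median of -0.05; with pregnant RNA read as Cy3 throughout, 3 of 17 were positive. The cytokine gene TNF had -0.10 ± 0.20 and its receptor gene TNFRSF1A 0.11 ± 0.46 (SD, n = 3), with array 2 left out there for an outlier flag. IL1B, another inducer of the pathway, had 0.04 ± 0.32 and was weak, with log2 levels of 6.32 to 6.95. Downstream, 14 target genes other than NFKBIA and CCL5 divided into 6 positive and 8 negative, with a median of -0.04; the positive count was 10 of 14 with median centring and 3 of 14 without array 2. The targets ICAM1, VCAM1 and CXCL8 were on the array but were not tested. NFKBIA, itself a target, had 0.47 on its brightest and 0.09 on its second probe. A relation between its ratio and those of the other targets was not tested.

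The IL6ST list held 9 other tested genes, 4 positive and 5 negative, with a median of -0.02; the positive count was 2 of 9 with the scan software's processed signals and also without array 2. Of the 9, 0 had an unadjusted p under 0.05 or an adjusted p under 0.05 by limma. IL6 itself was weak and had -0.27 ± 0.54, with 0.17, -0.39, -0.98 and 0.12 on arrays 1 to 4. IL6R, which binds interleukin 6 and pairs with gp130, had 0.01 ± 0.08. Of the kinases, JAK1 had -0.13 ± 0.16, read on array 4 inside the dim area, and JAK2 0.03 ± 0.23. Their second tested probes gave -0.46 for JAK1 and -0.26 for JAK2. STAT3, the main transcription factor downstream of gp130, had 0.02 ± 0.44, with 0.66 on array 3 and negative values on the others. Its feedback inhibitor gene SOCS3 had -0.02 ± 0.11. Like IL6, IL6R and SOCS3 were weak, with log2 levels of 6.55 to 6.98 and 6.35 to 6.63. The offset draws such ratios towards 0, so their small spread does not show a precise absence of difference. LIF was on the array and was not tested, with 3 of 8 signals well above background.

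The levels of JAK1 were 13.15 to 13.47 in pregnant and 13.14 to 13.52 in cyclic gilts on arrays 1 to 3, and 10.93 and 11.28 on array 4. As for NFKBIA, both gilts of array 4 stood below the other 6. The log2 ratio of JAK1 was -0.35 on array 4, while other listed genes read in the dim area had 0.27 (TRHR), 0.30 (AQP4), 0.13 (AIF1), 0.0039 (TYROBP) and -0.25 (ACTA2) there, and the median over its bright spots was 0.0042.

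**Figure D4:**
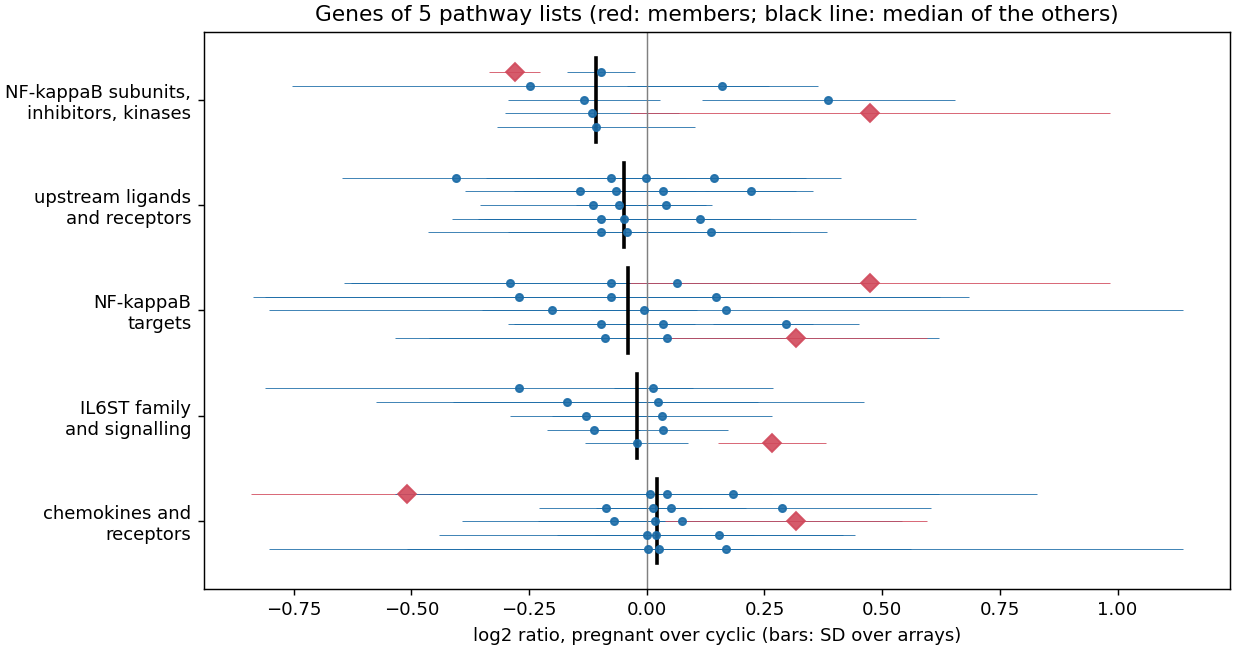
Log2 ratio of pregnant over cyclic (horizontal axis) for the tested genes of the 5 pathway lists (vertical axis), with bars of 1 SD over the arrays, the members as red diamonds and the median of the other genes as a black line. The medians lie between -0.11 and 0.02, and the 5 members, which were chosen with this comparison in view, have ratios from -0.51 to 0.47.

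Among chemokines and their receptors, 16 genes other than CXCR4 and CCL5 were tested. Positive ratios were found for 14 of them and negative ones for 2, but most were close to 0 and the median was 0.02. That count was 9 of 16 with the scan software's processed signals, 7 of 16 without array 1, 8 of 16 without array 4 and 3 of 16 with pregnant RNA read as Cy3 throughout. CXCL12, the ligand of CXCR4, had 0.03 ± 0.54, with 0.20, 0.29, -0.77 and 0.39 on arrays 1 to 4. Of the receptors of CCL5, CCR1 had 0.15 ± 0.26, and CCR3, with 0 of 8 signals well above background, was not tested.

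CCL2, a chemokine that draws monocytes, had 0.17 ± 0.97 (SD, n = 4), with 0.16, 1.35, -1.02 and 0.18 on arrays 1 to 4. Its level was 9.47 in the pregnant gilt of array 2, against 7.29 to 7.77 in the other pregnant gilts and 7.56 to 8.31 in the cyclic gilts. CCL4, a relative of CCL5, had log2 ratios of -0.15, 1.13, -0.30 and 0.05, and the pregnant gilt of array 2 again stood apart at 7.74, with the other 7 gilts between 6.59 and 6.89. For IL6 and CXCL12 it was the cyclic gilt of array 3 that was highest, at 7.43 and 8.54. These highest gilts thus differed between the genes, and CXCR4 was negative on both arrays while CCL5 was positive on both.

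**Figure D5:**
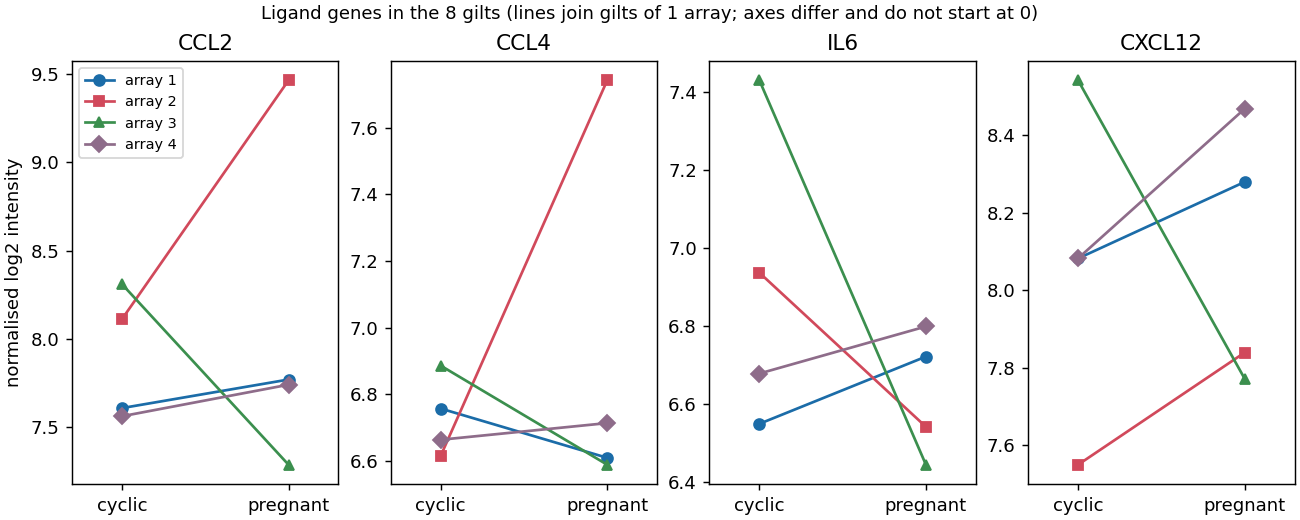
Normalised log2 intensity (vertical axes, which differ between panels) of CCL2, CCL4, IL6 and CXCL12 in cyclic and pregnant gilts, with a line joining the 2 gilts of an array; these 4 genes were picked for the plot after their values were seen. The pregnant gilt of array 2 is highest for CCL2 and CCL4, at 9.47 and 7.74, and the cyclic gilt of array 3 is highest for IL6 and CXCL12.

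Markers of other cells of the gland were set beside these ratios. Of 21 lymphocyte markers 12 were on the array and 5 were tested; the other 7 on the array lacked signals well above background on all arrays of a group. The T cell genes CD3D and CD4 had 0 of 8 signals well above background, CD2 had 3 of 8, and CD3E and CD3G had 6 of 8 on their best probe. The mean log2 level of the 5 tested ran from 7.61 to 8.14 in pregnant and from 7.66 to 8.06 in cyclic gilts. The mean ratio of these markers was 0.08, -0.06, -0.02 and 0.09 on arrays 1 to 4, while that of CCL5 was largest on array 2. Their part in the CCL5 ratio was not tested.

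Of 14 myeloid markers 7 were tested, 3 positive and 4 negative, and SPI1, with 0 of 8 signals well above background, was not tested; 2 of the 7 lay in the dim area on array 4. Over the 6 with a level in all 8 gilts, the mean log2 level ran from 7.54 to 8.81 in pregnant and from 7.53 to 8.60 in cyclic gilts. Their mean ratio was -0.15, 0.53, -0.40 and 0.02 on arrays 1 to 4, beside 0.04, 0.25, -0.27 and 0.19 for the 16 chemokine genes. The mean ratios of both lists were highest on array 2 and lowest on array 3. The same order held for each of the other pathway lists, with 0.24 and -0.37 for the NF-kappaB targets. It was thus not particular to the myeloid and chemokine lists. The part of the myeloid markers in the chemokine ratios was not tested.

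Of 4 tested stromal and pericyte markers 3 were negative, each with an unadjusted limma p under 0.05 and none past adjustment (smallest adjusted p = 0.237), with a list median of -0.33, and of 5 tested endothelial markers 4 were negative, with a median of -0.18. Mean levels of the 3 stromal markers with a level in all 8 gilts ran from 9.71 to 9.99 in pregnant and from 9.63 to 10.21 in cyclic gilts, and those of the 5 endothelial markers from 8.15 to 8.49 and from 8.34 to 8.72. The cyclic gilt of array 3, highest for CXCR4, was also highest for both lists. It was likewise highest for the IL6ST family list, at 8.16, and for IL6 and CXCL12. The part of the stromal and endothelial markers in the CXCR4 ratio was not tested. Of 9 folliculostellate and stem cell markers 4 were tested, 1 positive and 3 negative, with a median of -0.10, and mean levels of the 2 with values in all 8 gilts ran from 8.36 to 9.02 in pregnant and from 8.50 to 9.18 in cyclic gilts.

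The named genes whose levels followed each member most closely were sought among 1494 genes with a level in all 8 gilts, after the mean of each dye was taken out (Pearson's r); the gilts share arrays in pairs, and the values are a description. Spearman's rho of the 10 genes below ran from 0.833 to 1. For CXCR4 they were UNC5B, a netrin receptor gene (r = 0.982), and STAT5A, a transcription factor of cytokine and prolactin signalling (r = 0.981). For CCL5 they were the endothelial adhesion gene PECAM1 (r = 0.948) and the ribosomal protein gene RPS21 (r = 0.921). With the mean of the 5 tested endothelial markers, PECAM1 among them, CCL5 had r = 0.035. The 3 tested probes of PECAM1 had fitted ratios from -0.26 to 0.20. For IL6ST the closest genes were XIAP, an inhibitor of apoptosis (r = 0.977), and the cation channel gene TRPC1 (r = 0.969). For RELA they were CCDC6 (r = 0.994) and the mitochondrial ribosomal gene MRPS18B (r = 0.991). For NFKBIA they were the helicase gene DDX20 (r = 0.988) and AIF1 (r = 0.985), and the array 4 spots of both also lay in the dim area.

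Between members, levels of IL6ST and CXCR4 ran in opposite directions over the 8 gilts (r = -0.753), also without the 2 gilts of array 4 (r = -0.739). Levels of NFKBIA and RELA gave r = -0.933 over 8 gilts and -0.867 over the 6 gilts of arrays 1 to 3. These values rest on the brightest probe of each gene. On the second probes the array 4 gilts stood the other way. They were highest for NFKBIA, at 11.18 and 11.27, and lowest for RELA, at 6.49 and 6.60 (pregnant and cyclic). For NFKBIA and CXCR4 the value moved from 0.0635 to -0.834 when array 4 was left out. These correlations hold the difference between pregnant and cyclic gilts by which the genes were chosen.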

How the data were processed

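Anterior pituitary RNA of 8 gilts was hybridised in pairs, 825 ng of labelled cRNA per dye, to 4 Agilent arrays of design 026440. Per the file headers, the deposited files hold median spot and background intensity in Cy3 and Cy5 from Agilent Feature Extraction 10.7.3.1, processed intensity values and a log10 ratio (red to green). The deposited value table holds log2 ratios. Regressed on log2 processed ratios (Cy5/Cy3), arrays 1 to 4 gave slopes of -1, 1, -1 and 1, which is pregnant over cyclic by the sample labels. Medians of 0.07, -0.08, -0.18 and -0.17 show no centring.

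Background was corrected by normexp (offset 50) and dye bias by loess with control spots at weight 0; outlier-flagged spots were dropped and replicate spots averaged. Levels per gilt were taken after Aquantile normalisation. Testing required signals well above background on all 4 arrays of at least 1 group, and at least 3 unflagged arrays: 21616 of 43603 probes, 19869 on 4 arrays and 1747 on 3. limma 3.58.1 (R 4.3.3) fitted the group difference and a dye effect, with Benjamini-Hochberg adjustment. The value before a plus-minus sign is the fitted ratio, which can differ from the plain mean for probes with 3 arrays. The p-values of this fit set the fitted ratio against the spread between arrays that is left after the dye effect. This spread is estimated with information shared across probes, and each array holds a pair of gilts. The SDs given with the ratios are those of the plain array ratios and still hold any dye effect. The dim area comprises tiles of 10 rows by 5 columns of array 4 whose bright spots were, by the median, over 1 log2 unit dimmer than on the other arrays. The fit was tested on simulated data. The number of arrays limits the precision.

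Names came from RefSeq accessions, without versions, matched to NCBI's pig table (Sscrofa11.1): 5578 probes had one. The brightest tested probe (highest mean intensity) stands for its gene. The members, lists and rule for named genes (every member probe; partner and target genes with a tested probe; the 2 genes most like each member) were chosen with earlier results of these data known. Of 37 partner genes 26 were on the array and 19 tested. Alternatives changed the background correction, normalisation, dye reading, dye effect, filters, flags, dim area, model, probe choice and arrays. No sequences of probes or genes were used here, and some listed genes are not reported here.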

Additional observations from a re-analysis of the deposited data

Results flagged for a closer look

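Dixon's test was applied to 42 sets of 4 values and singled out 1 sample in 6 of them. Chance alone would do so in about 1 independent set in 20, or 2.1. The ratio and levels of a probe come from the same spots, so these sets are not independent and the 6 cannot be read as an excess. For NFKBIA probe A_72_P165846 the values singled out were all from array 4, whose spot lies in the dim area. They were the log2 ratio of -0.29 and the log2 levels of 11.31 in the pregnant and 11.60 in the cyclic gilt. For CCL5 probe A_72_P115401 it was the level of 6.56 in the cyclic gilt of array 2. CHUK had a log2 ratio of -1.004 and CXCL12 one of -0.77, both on array 3, where the ratios of all tested probes were widest.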

How the results depend on the processing

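With the dyes as labelled, the fitted ratios of the brightest probes of NFKBIA, RELA, IL6ST, CXCR4 and CCL5 kept their sign under each alternative run. The ratios of single arrays did not, and with median centring each of these probes had an array of the other sign. With pregnant RNA always in Cy3, as the labelling protocol reads, CCL5 reversed to -0.14, NFKBIA had 0.27, and RELA, IL6ST and CXCR4 came to -0.041, 0.0065 and -0.033. RELA moved to -0.35 without background correction, -0.37 with an offset of 16, -0.53 with processed signals or the deposited table, and -0.19 with median centring. IL6ST moved to 0.38 with median centring and to 0.15 as the mean of both probes, where NFKBIA had 0.28 and CCL5 0.15. Without the dim area, as without array 4, NFKBIA had 0.72. Leaving out each array in turn gave 0.23 to 0.72 for NFKBIA, -0.30 to -0.26 for RELA, 0.20 to 0.33 for IL6ST, -0.71 to -0.31 for CXCR4 and 0.19 to 0.44 for CCL5.

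The count of 0 probes at an adjusted p under 0.05 (limma) became 1 without background correction or with an offset of 16, 2 without a dye effect, 1049 in the separate-channel fit and 0 to 3401 on leaving out an array, the latter without replicate 1. The 3904 probes at an unadjusted p under 0.05 became 2556 with median centring, 1011 with pregnant always in Cy3, and 895 to 7068 on leaving out an array, lowest without array 2 and highest without array 1. Median centring also moved the share of higher among them from 57.8% to 82.2%. The causes were not tested. Weak signals limit RELA, the second probes of IL6ST and CCL5, and partner genes such as IL6, IL6R, SOCS3, IKBKB, IL1B and CCL4.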
